A study of Rattus norvegicus with 15 samples.

Results

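The genes described here are those of rat chromosomes 8 and 19 that appear in any of the 3 tables of differentially expressed genes from the RNA-seq of rat adrenal medulla. Both chromosomes were taken because allelic loss of them has been reported in the pheochromocytomas (PCCs) of MENX rats, and genes were chosen only by the chromosome given for them, without using their expression. They are 744 of the 8621 listed genes, 492 on chromosome 8 and 252 on chromosome 19, and 7568 listed genes of the other autosomes served for comparison. The samples were the macrodissected adrenal medulla of 5 WT rats, of 5 MENX rats with adrenomedullary hyperplasia (HYP) and of 5 MENX rats with PCC. MENX rats carry a homozygous frameshift mutation of Cdkn1b, which encodes the cell cycle inhibitor p27; WT rats lack the mutation, and all animals were Sprague-Dawley rats. The WT and PCC rats were 7 to 9.5 months old and the HYP rats 4 to 5 months old. Genotype and age therefore cannot be told apart in HYP vs. WT, nor can lesion and age in PCC vs. HYP.

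Tumors of chromaffin cells, the catecholamine-producing cells of the adrenal medulla, are known for the loss of whole chromosomes or chromosome arms. When a cell loses a copy of a chromosome, transcripts of its genes can fall together along its length. A change in cell composition or in regulation alters genes of any chromosome and can also move neighbouring genes together. RNA counts give transcript levels and not DNA copies, and no DNA was measured in these samples.

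Each table lists only genes that the authors had called in that comparison, so few fold changes lie near 0 and a chromosome's median can jump between the lower and the higher genes. The share of genes fitted lower is therefore given first. Each library held 16315018 to 23831269 reads on genes. Cdkn1b itself had 44.6 to 72.1 CPM (reads scaled by library size) in WT, 82.5 to 124 in HYP and 108 to 173 in PCC. The transcript carries the mutation in HYP and PCC, and counts do not measure the protein. The levels of cell type markers also differed between groups. Each level below covers only markers with values in all 15 samples, which the authors had called in more than 1 comparison. Part of the differences is therefore built in. The levels covered 10 of 13 chromaffin cell markers (without Pnmt, Chga and Chgb) and 9 of 15 of the adrenal cortex. They also covered 6 of 9 endothelial markers and 7 of 8 of sustentacular and Schwann cells. The paper reports a fall of Pnmt in advanced PCC. The median level of 10 chromaffin cell markers, relative to the WT mean, was 0.31 to 1.54 in WT, 1.71 to 2.68 in HYP and 3.34 to 4.90 in PCC, with WT replicate 5 the lowest at 0.31. The median level of 9 adrenal cortex markers was 0.645 to 1.32 in WT, 0.272 to 0.704 in HYP and 0.023 to 0.363 in PCC. That of 6 endothelial markers was 0.879 to 1.19 in WT, 0.584 to 0.833 in HYP and 0.299 to 0.703 in PCC, and that of 7 sustentacular and Schwann cell markers 0.687 to 2.10, 1.88 to 3.45 and 1.52 to 4.88. These 2 lists were mixed in PCC vs. WT. Of the endothelial markers 2 were called higher and 4 lower, and of the sustentacular and Schwann cell markers 5 higher and 2 lower. Only 2 macrophage and leukocyte markers had values in all samples, with levels of 0.866 to 1.18 in WT, 1.55 to 1.79 in HYP and 0.309 to 2.04 in PCC, and of the adipocyte markers only Pparg did, at 0.546 to 1.61, 0.447 to 0.726 and 0.234 to 0.698. The part of these shifts in the results below was not tested, and fewer cells of a type and less RNA per cell cannot be told apart in these bulk samples.

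Promoters are shown from 2 of the lists by role described below, genes of the cell cycle and mitosis and genes of mitochondrial and metabolic enzymes. RefSeq promoter sequences (GRCr8; 250 bases before to 50 bases after the start) matched 508 of the 744 genes by symbol. The 5 motifs searched, on both strands, were the CCAAT box bound by NF-Y (CCAAT), the cell cycle genes homology region (TTTGAA), an E2F site (GGCGGGAA), an ETS site (CCGGAAG) and the NRF1 core (GCATGCGC). No motif contains another. The cell cycle promoters below hold at least 1 of the first 3 motifs, and these matches are in capitals. The 6 promoters shown were chosen after their matches had been seen. Anln, which encodes the cytokinesis scaffold anillin, lies on the minus strand at chr8:29197464-29197763.
Anln: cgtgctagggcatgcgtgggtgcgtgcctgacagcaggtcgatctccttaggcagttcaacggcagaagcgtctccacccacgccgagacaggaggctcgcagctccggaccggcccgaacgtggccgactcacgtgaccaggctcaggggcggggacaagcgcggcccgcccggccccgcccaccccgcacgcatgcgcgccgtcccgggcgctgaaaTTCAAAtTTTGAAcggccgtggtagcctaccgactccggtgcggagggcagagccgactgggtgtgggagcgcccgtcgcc
Kif23, a kinesin of the central spindle, lies on the minus strand at chr8:71320535-71320834.
Kif23: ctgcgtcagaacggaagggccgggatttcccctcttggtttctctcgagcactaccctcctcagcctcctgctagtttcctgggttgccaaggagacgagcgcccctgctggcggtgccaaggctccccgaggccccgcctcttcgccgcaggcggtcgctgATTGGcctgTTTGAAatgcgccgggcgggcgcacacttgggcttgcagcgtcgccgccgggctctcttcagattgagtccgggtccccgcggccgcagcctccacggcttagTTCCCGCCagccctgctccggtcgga
Ttk, a kinase of the spindle checkpoint, lies on the plus strand at chr8:93634389-93634688.
Ttk: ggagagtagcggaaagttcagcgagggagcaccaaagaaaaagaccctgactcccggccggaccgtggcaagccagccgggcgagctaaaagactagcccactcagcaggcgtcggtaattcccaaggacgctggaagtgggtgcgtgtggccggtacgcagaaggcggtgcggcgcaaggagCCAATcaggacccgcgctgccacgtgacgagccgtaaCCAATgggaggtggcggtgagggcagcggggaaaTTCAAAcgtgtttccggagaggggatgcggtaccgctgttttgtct
Gins3, a subunit of the replicative helicase complex, lies on the minus strand at chr19:9434630-9434929.
Gins3: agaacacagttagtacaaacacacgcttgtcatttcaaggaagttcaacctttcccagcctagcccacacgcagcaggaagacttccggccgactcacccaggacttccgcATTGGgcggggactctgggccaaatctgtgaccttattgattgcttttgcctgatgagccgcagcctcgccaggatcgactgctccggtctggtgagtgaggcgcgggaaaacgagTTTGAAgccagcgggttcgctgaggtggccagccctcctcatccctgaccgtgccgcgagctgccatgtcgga

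Of the 16 listed cell cycle genes with a matched promoter, 9 held CCAAT (56.25%), 7 held TTTGAA (43.75%) and 1 held GGCGGGAA (6.25%). Among all 27457 promoters these shares were 37.74%, 18.07% and 2.02%, and among the 508 matched genes of chromosomes 8 and 19 they were 39.37%, 10.83% and 3.35%. Of the 20 matched genes of mitochondrial and metabolic enzymes, 4 held the ETS site (20%) and 3 the NRF1 core (15%), against 9.22% and 2.66% of all promoters and 15.55% and 5.51% of the matched genes of both chromosomes. On chromosome 19 alone the ETS site stood in 35 of 157 promoters (22.29%), and on chromosome 8 in 44 of 351 (12.54%). The counts are over all matched members of a list, called or not, and describe the letters only. Both promoters below, of Cox4i1 (plus strand, chr19:65630133-65630432), a subunit of cytochrome c oxidase, and of Sdhd (minus strand, chr8:59850592-59850891), a membrane anchor of succinate dehydrogenase, hold 2 copies of the ETS site read from the opposite strand, in capitals.
Cox4i1: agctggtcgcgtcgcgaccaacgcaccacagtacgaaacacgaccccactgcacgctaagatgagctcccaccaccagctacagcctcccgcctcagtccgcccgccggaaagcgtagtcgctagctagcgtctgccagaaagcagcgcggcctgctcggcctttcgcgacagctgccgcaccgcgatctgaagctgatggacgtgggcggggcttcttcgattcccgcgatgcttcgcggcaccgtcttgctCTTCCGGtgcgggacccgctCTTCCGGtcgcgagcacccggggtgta
Sdhd: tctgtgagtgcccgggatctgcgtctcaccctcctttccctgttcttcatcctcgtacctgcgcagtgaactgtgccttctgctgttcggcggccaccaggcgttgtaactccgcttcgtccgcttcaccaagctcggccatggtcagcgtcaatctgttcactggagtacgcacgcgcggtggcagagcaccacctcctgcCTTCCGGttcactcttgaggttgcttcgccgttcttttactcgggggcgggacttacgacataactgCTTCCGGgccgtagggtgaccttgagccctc

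In PCC vs. WT, the listed genes of chromosome 19 were mostly lower and those of chromosome 8 were evenly split. On chromosome 19, 69 of 215 tested genes passed as higher in PCC, 106 passed as lower (adjusted p under 0.05) and 40 were not called. On chromosome 8, 185 of 407 were higher, 155 lower and 67 not called. The balance of calls turned with the scaling: with library totals 75 genes of chromosome 19 were called higher and 51 lower, and with the sum of listed counts 75 and 29, while on chromosome 8 these counts were 209 and 95, and 209 and 61. Of all 7001 genes tested, 85.2% were called, 46.7% higher and 38.5% lower, since the tables hold only genes the authors had called. The groups did not overlap for 131 genes of chromosome 19 (60.93%) and 265 of chromosome 8 (65.11%), against 64.7% of all genes tested. The share of genes fitted lower, called or not, was 65.12% on chromosome 19, 48.65% on chromosome 8 and 48.81% over the 6155 genes of the other autosomes. Chromosome 19 had the largest share of the 20 autosomes, followed by chromosome 20 (60.95%) and chromosome 17 (56.15%), while chromosome 8 ranked 14. This first rank of chromosome 19 held in all 18 fits (that above and 17 with another scaling, filter or tool, with a replicate block or without 1 library), in which its share lay 11.7 to 19.93 percentage points above the other autosomes. All 18 fits took genes that the authors had called from the same samples, so few directions could turn. Their agreement is therefore no separate support. Since genes on a chromosome are not independent and were listed for being called, no p is given for these shares.

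In HYP vs. WT, the shares of both chromosomes lay near that of the other autosomes. On chromosome 19, 45 of 117 genes were higher and 43 lower, and on chromosome 8, 102 of 240 were higher and 73 lower, where 72.1% of all 4108 genes tested were called (39.5% higher, 32.5% lower). The groups did not overlap for 73 genes of chromosome 19 and 147 of chromosome 8, against 54.8% of all genes tested. The share fitted lower was 53.85% on chromosome 19, 49.17% on chromosome 8 and 52.61% over the other autosomes. With library totals 53 genes of chromosome 19 were higher and 20 lower, and with the sum of listed counts 54 and 8. Chromosome 19 ranked 7 of the 20 autosomes here by the share fitted lower, and between 3 and 13 in the 18 fits. Without HYP replicate 5 the genes called lower were 44 on chromosome 8 and 26 on chromosome 19.

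In PCC vs. HYP, 64 genes of chromosome 19 were tested, of which 4 were higher, 17 lower and 43 not called. This balance did not hold under other scalings, with 14 higher and 6 lower by library totals, 13 and 12 by the authors' size factors and 5 and 3 by the sum of listed counts. On chromosome 8, 38 of 173 were higher, 43 lower and 92 not called, and of all 3148 genes tested 44.4% were called (21.8% higher, 22.6% lower). The groups did not overlap for 30 genes of chromosome 19 and 100 of chromosome 8, against 54.3% of all genes tested. The share fitted lower was 65.62% on chromosome 19, 46.82% on chromosome 8 and 43.86% over the other autosomes, and chromosome 19 ranked first in all 18 fits. This comparison shares the PCC samples with PCC vs. WT and is not a separate set of animals. The HYP rats were also younger than the PCC rats. The number of genes called moved with single libraries here. On chromosome 19, 29 genes were lower without PCC replicate 5, 3 without PCC replicate 2 or HYP replicate 3, 4 without HYP replicate 4, 5 without HYP replicate 5, 7 without PCC replicate 3 and 8 without HYP replicate 2. On chromosome 8, 8 genes were lower without HYP replicate 3 or 4, 16 without PCC replicate 2 or HYP replicate 5, 25 without PCC replicate 3 and 26 without HYP replicate 2. Those higher on chromosome 8 numbered 15 without HYP replicate 4, 16 without HYP replicate 3, 23 without HYP replicate 5 or PCC replicate 3 and 25 without PCC replicate 2, and those on chromosome 19 between 1 and 10.

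**Figure D1:**
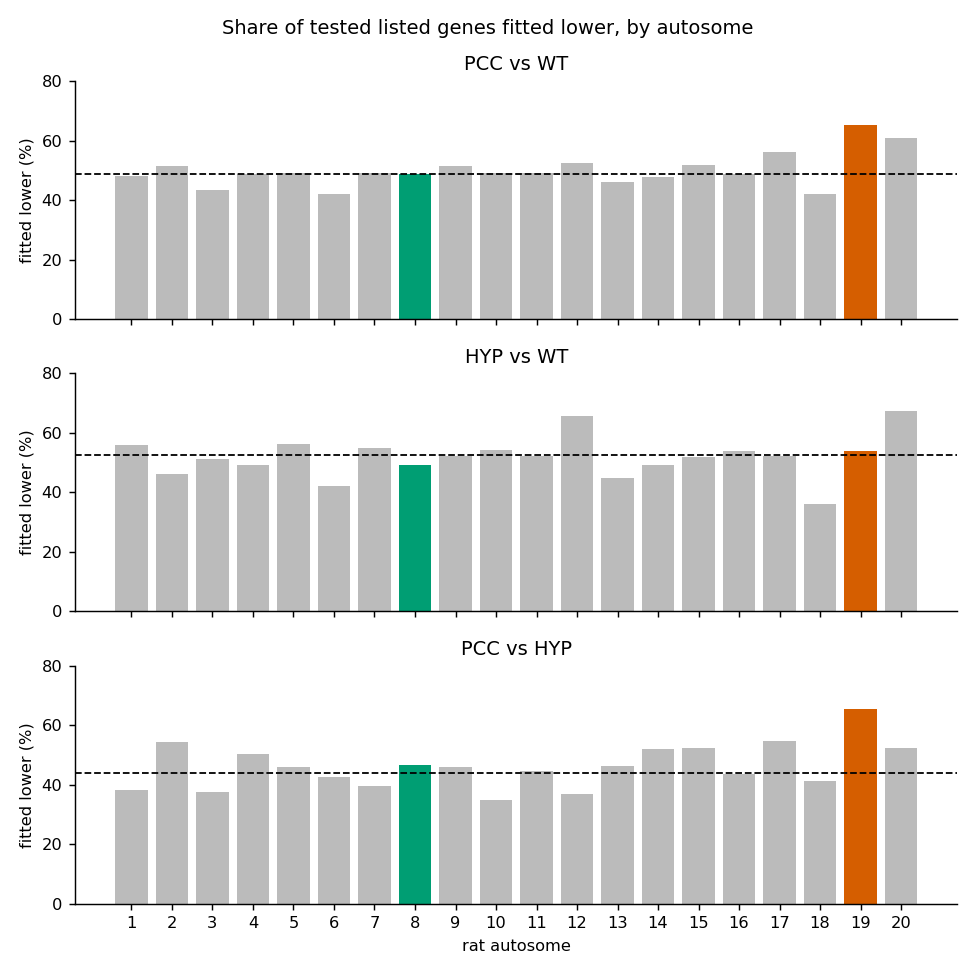
Share of tested listed genes fitted lower (%, called or not) for each rat autosome in the 3 comparisons, with chromosome 8 in green, chromosome 19 in orange and the share over the other autosomes as a dashed line. Chromosome 19 has the tallest bar in PCC vs. WT (65.12%) and PCC vs. HYP (65.62%), but not in HYP vs. WT (53.85%).

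The size of the difference depended on the measure. The median log2 fold change of chromosome 19 lay 1.10 below that of the other autosomes in PCC vs. WT (-0.63 against 0.47), while the mean lay only 0.33 below. For chromosome 20 the median was 1.18 and the mean 0.46 below, so chromosome 19 was second in both. With no filter on low counts the mean of chromosome 19 lay only 0.064 below the other autosomes and ranked 6. For chromosome 8 the median lay 0.03 above and the mean 0.04 below the other autosomes. The quartiles of chromosome 19 were -1.14 and 0.97, and those of the other autosomes -1.09 and 1.37, so the lower quartile hardly differed and the upper quartile was lower. In PCC vs. HYP the median of chromosome 19 lay 1.17 and the mean 0.44 below the other autosomes. In HYP vs. WT the median of chromosome 19 lay 0.05 below and the mean 0.09 above. For chromosome 8 in HYP vs. WT the median lay 0.785 above, but the mean only 0.069 above.

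The level of each chromosome was also taken in each sample, as the median over genes with values in all 15 samples (156 on chromosome 19, 310 on chromosome 8) of the log2 ratio to the WT mean, minus that over the 4846 such genes of the other autosomes. For chromosome 19 this level was -0.007, -0.080, -0.011, 0.011 and 0.073 in WT replicates 1 to 5. It was -0.077, -0.324, -0.121, -0.181 and -0.269 in HYP and -0.725, -0.852, -0.856, -0.948 and -0.588 in PCC. In this measure all PCC samples were lower than all HYP samples, and only the highest HYP sample reached the range of WT. By the share of genes below the WT mean, given below, PCC did not lie apart from HYP. Genes have values in all 15 samples only if the authors called them in more than 1 comparison, so part of this separation is built in. PCC also lay apart from WT on other chromosomes, though not on all. For chromosome 18 the level was 0.306 to 0.731 in PCC and -0.027 to 0.032 in WT. The means were -0.003 ± 0.054 (SD, n = 5) in WT, -0.194 ± 0.102 in HYP and -0.794 ± 0.140 in PCC. Chromosome 19 was not alone: chromosome 20 had the lowest mean in both PCC (-1.009) and HYP (-0.424), and chromosome 12 had a mean of -0.750 in PCC, chromosome 17 of -0.668 and chromosome 15 of -0.592, and chromosome 19 ranked second lowest. Taken as summed counts instead of medians, the difference between PCC and WT for chromosome 19 shrank from -0.791 to -0.314, and taken as the mean over genes to -0.234.

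For chromosome 8 the level was within -0.011 to 0.004 in WT, 0.066 to 0.166 in HYP and 0.160 to 0.407 in PCC. PCC samples were thus above WT samples in this measure, but the sign depended on the measure. With summed counts the difference between PCC and WT was -0.184 in place of 0.294, and with the mean over genes it was 0.043. The share of genes below the WT mean was steadier. It was 43.55 to 44.84% in the 5 PCC samples for chromosome 8, 55.13 to 57.05% for chromosome 19 and 48.37 to 48.99% for the other autosomes. In HYP it was 42.90 to 45.81%, 51.28 to 58.33% and 46.84 to 49.73%. In each case the range in PCC fell inside that in HYP, so this share did not separate PCC from HYP.

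**Figure D2:**
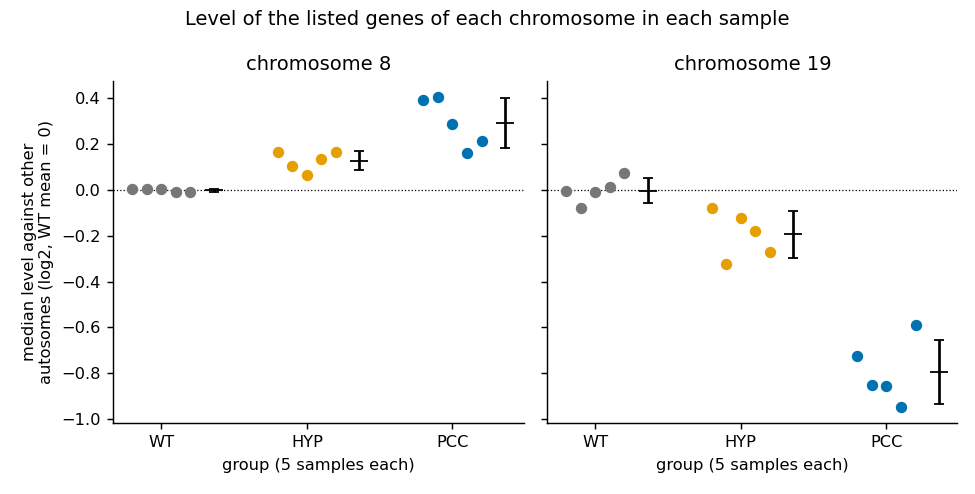
Level of the listed genes of chromosomes 8 and 19 in each of the 15 samples (log2, median over genes minus that of the other autosomes, mean of WT = 0); points are samples, and the black bars give mean and SD of each group of 5. For chromosome 19 the PCC samples lie between -0.948 and -0.588, below all WT and HYP samples, and for chromosome 8 between 0.160 and 0.407, a direction that reversed with summed counts. The genes were listed for differing between groups, so part of the separation is built in. By the share of genes below the WT mean, PCC and HYP overlapped on both chromosomes.

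Along chromosome 19 the lower genes were spread over its whole length, with a denser stretch between 40 and 50 Mb. In windows of 10 Mb with at least 10 tested genes, most genes were fitted lower in 6 of 6 windows of chromosome 19 in PCC vs. WT, in 5 of 14 windows of chromosome 8 and in 77 of 203 windows of the other autosomes (37.93%). In the window from 40 to 50 Mb of chromosome 19, 27 of 31 genes were fitted lower (87.1%), 20 were called lower and 4 higher. By the share fitted lower it ranked second of 223 windows. The share in the other windows of chromosome 19 ran from 54.72% (20 to 30 Mb, with 23 genes higher and 24 lower) to 68.89% (50 to 60 Mb, 13 higher and 23 lower). In HYP vs. WT the window from 40 to 50 Mb had 12 of 18 genes fitted lower, of which 6 were called lower and 4 of all 18 higher.

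On chromosome 8 the windows went both ways. From 50 to 60 Mb, 26 genes were called higher and 11 lower in PCC, and from 70 to 80 Mb 16 were higher and 8 lower. From 100 to 110 Mb, 13 of 18 genes were fitted lower (72.22%), and from 110 to 120 Mb, the densest window with 63 tested genes, 25 were called higher and 29 lower. The window from 100 to 110 Mb also had 9 of 12 genes fitted lower in HYP vs. WT, a comparison with the same WT samples.

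**Figure D3:**
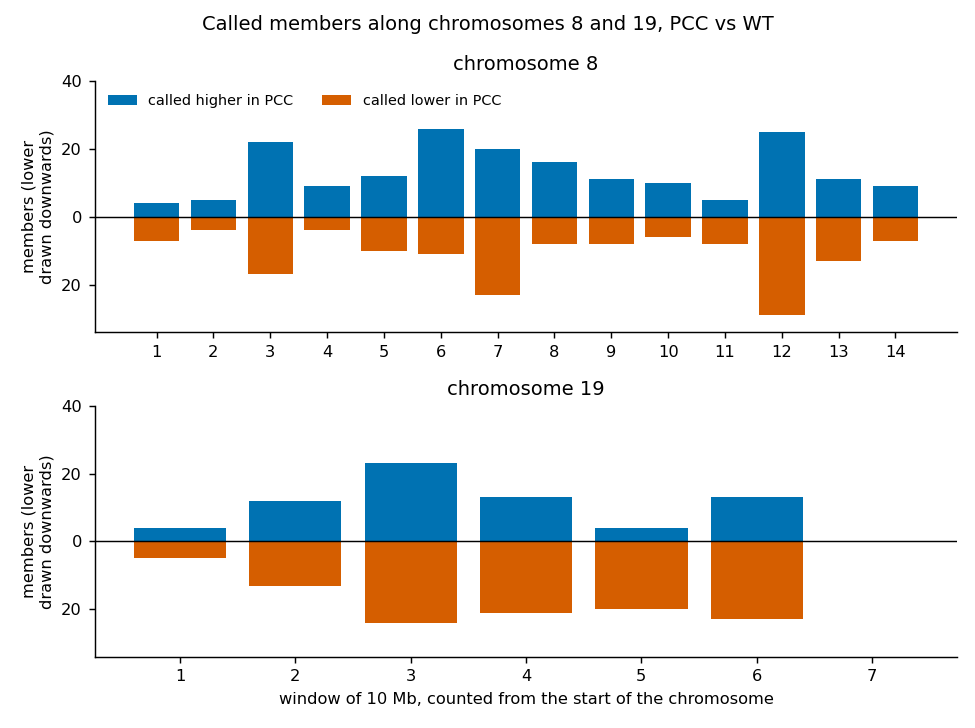
Number of genes called higher (blue, upwards) and lower (orange, downwards) in PCC vs. WT in consecutive windows of 10 Mb along chromosomes 8 and 19. On chromosome 19 the fifth window holds 4 higher and 20 lower genes, and on chromosome 8 the sixth holds 26 higher and 11 lower.

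Neighbouring genes on chromosome 19 shared their direction more often than those of the other autosomes in PCC vs. WT, but not in PCC vs. HYP. In PCC vs. WT, 147 of 214 adjacent pairs of tested genes on chromosome 19 had the same direction (68.69%). On chromosome 8 it was 237 of 406 (58.37%), and on the other autosomes 58.74% of 6137 pairs. The larger share of lower genes by itself raises the value of chromosome 19. From the shares alone it would be 54.57% on chromosome 19, 50.04% on chromosome 8 and 50.03% on the other autosomes. In PCC vs. HYP the value was 58.73% on chromosome 19 (54.88% from the shares alone) and 59.78% on the other autosomes (50.75%). In HYP vs. WT it was 61.21% on chromosome 19 (50.3%) and 58.71% on the other autosomes (50.14%). The longest run of lower genes on chromosome 19 was of 20 consecutive tested genes, from Ist1 (41968705) to Syce1l (45946236) in Rn06 coordinates, of which 16 were called. It held Dhodh, an enzyme of pyrimidine synthesis (log2 fold change -1.26), Hp, haptoglobin (-1.81), Mlkl, the effector of necroptosis (-1.03), Gabarapl2 of autophagy (-0.69), and the aminoacyl-tRNA synthetases Aars (-0.80) and Kars (-0.71). The longest run of higher genes on chromosome 8 was of 13 genes, from Fam63b (77035147) to Gnb5 (82257849), of which 12 were called. It held Rab27a (1.54) and Myo5a (2.46), which act in the transport of secretory granules. The longest run of lower genes on chromosome 8 was of 11 genes from Nmnat3 to Cdv3, with 9 called, among them Amotl2 (-2.53) and Pccb (-1.61). The longest run of higher genes on chromosome 19 was of 7, all called, from Slc38a7 to Tepp, among them Gins3 (1.95) and Mmp15 (2.21). The genes of these runs were chosen by their values.

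Grouped by role, the lists differed in direction in PCC vs. WT. Ncam1 of the chromaffin list and Fdx1 of the cortex list are also among the cell type markers above. The lists were written with earlier results of these data known, and their counts are to be read against the 85.2% of all tested genes that were called and the median log2 fold change of 0.44 over all of them. Of 17 tested genes of the cell cycle and mitosis, 12 were higher and none lower (median 1.14), and of 32 chromaffin and neuronal signalling genes 26 were higher and 2 lower (median 1.54). Of 23 mitochondrial and metabolic enzymes, 2 were higher and 19 lower (median -1.0), and of 7 redox and detoxification genes all 7 were lower (median -2.07). Of 15 immune cell genes 1 was higher and 9 were lower (median -1.29), and of 6 adrenal cortex and steroid genes 1 was higher and 4 were lower (median -2.15). Tumor suppressor and DNA damage genes were split with 6 of 14 in each direction (median -0.48), and matrix, adhesion and vessel genes with 8 higher and 6 lower of 16 (median 0.16).

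These counts moved with the scaling. Against the scaling used here, library totals raised the log2 fold changes of PCC vs. WT by a median of 0.29. The total of the listed counts raised them by a median of 0.50. With the authors' own size factors the median change was -0.06 and with DESeq2's it was -0.10. The mitochondrial enzymes called lower fell from 19 to 12 with library totals and to 6 with the total of the listed counts, but were 21 with the authors' size factors. Between 5 and 7 redox genes were lower in each of these fits. Of the immune cell genes, 3 were higher and 5 lower with library totals, and 3 higher and 2 lower with the sum of listed counts. The tumor suppressor genes called lower were 3 and 1 in these fits and the matrix genes 4 and 2. With DESeq2, 3 cell cycle genes were called lower beside 13 higher. The median of the tumor suppressor list ranged from -0.59 to 0.03 over the alternatives. The medians of the other 7 lists kept their sign in PCC vs. WT. Several genes given as lower here lost their call. With library totals these were Cx3cl1, Mt2A, Ndufb7, Rassf1, Scamp2, Sdhd and Smarca4. With the sum of listed counts they were these genes and Cox4i1, Cox5a, Dhodh, Got2, Hp, Hyal2, Icam1 and Nqo1. Rassf1 and Mt2A were not called with at least 10 counts in every sample either.

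**Figure D4:**
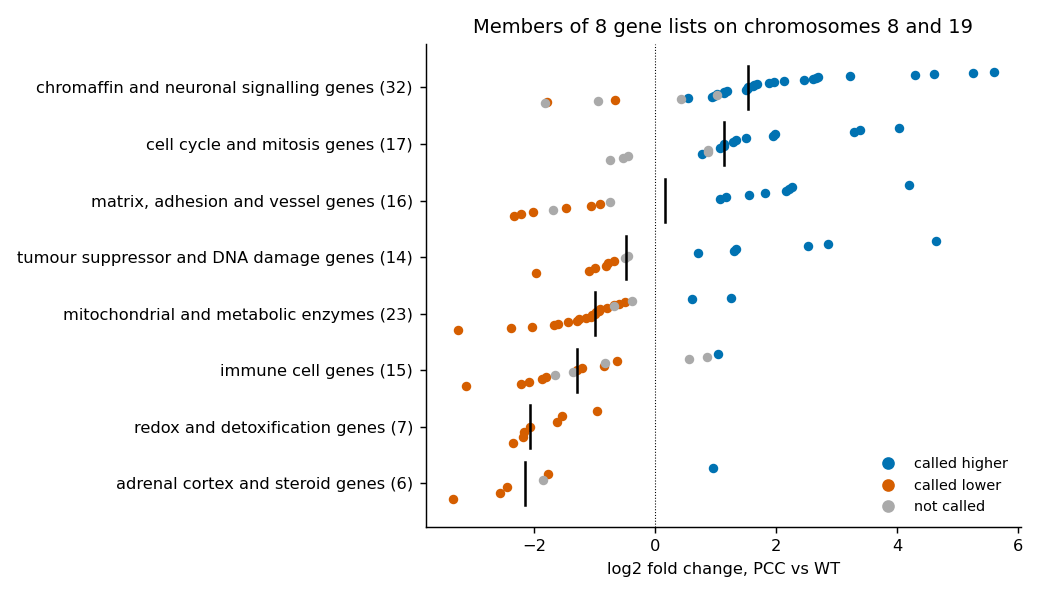
Log2 fold change in PCC vs. WT of the tested genes of chromosomes 8 and 19 in 8 lists by role, with the number tested in brackets; blue points were called higher, orange lower and gray not called, and the black line is the list's median. The medians run from -2.15 (adrenal cortex and steroid genes) to 1.54 (chromaffin and neuronal signalling genes).

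Among the listed cell cycle genes, Anln had the largest change. The CPM of Anln was 0.288, 0.705, 0.95, 0.626 and 0.64 in the WT samples 1 to 5, 2.28, 4.78, 4.32, 2.79 and 2.79 in the HYP samples and 5.88, 18.7, 11, 13 and 4.94 in the PCC samples. The groups did not overlap and HYP lay between WT and PCC. The log2 fold change was 4.04 ± 0.46, adjusted p = 0.000193 for PCC vs. WT, 2.34 ± 0.33, adjusted p = 0.00124 for HYP vs. WT and 1.55 ± 0.38, adjusted p = 0.0313 for PCC vs. HYP. Kif23 followed the same order. The CPM of Kif23 was 0.769, 0.655, 0.317, 0.814 and 1.49 in the WT samples 1 to 5, 3.23, 4.34, 3.61, 3.54 and 3.89 in the HYP samples and 4.69, 12.2, 8.37, 9.84 and 4.51 in the PCC samples. Its log2 fold change was 3.29 ± 0.44, adjusted p = 0.00039 for PCC vs. WT; between PCC and HYP it was 0.98 ± 0.30, adjusted p = 0.0658, which did not pass. Ttk had 0.625, 0.403, 0.0527, 0.501 and 0.569 CPM in WT, 2.09, 2.36, 1.42, 1.34 and 1.45 in HYP and 2.6, 7.67, 4.63, 5.87 and 2.28 in PCC, with WT replicate 3 at the level of a single read. Its log2 fold change for PCC vs. WT was 3.39 ± 0.55, adjusted p = 0.000974.

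Chromosome 19 carried replication genes that rose against the direction of most of its genes. Mcm5, a subunit of the replicative helicase, was the only gene of chromosome 19 that the rule for named genes gave as higher in PCC vs. HYP, where Il34 and 2 unnamed or uncharacterised genes were also called higher. The CPM of Mcm5 was 3.03, 3.98, 1.79, 2.69 and 3.06 in the WT samples 1 to 5, 7.35, 11.1, 5.61, 8.77 and 9.03 in the HYP samples and 11.6, 42.8, 19.6, 23.9 and 14.8 in the PCC samples. PCC replicate 2 was the highest, and the groups did not overlap. The log2 fold change was 2.93 ± 0.39, adjusted p = 0.000399 for PCC vs. WT, 1.47 ± 0.26, adjusted p = 0.00344 for HYP vs. WT and 1.32 ± 0.34, adjusted p = 0.0361 for PCC vs. HYP. Gins3 rose with a log2 fold change of 1.95 ± 0.29, adjusted p = 0.000638 for PCC vs. WT, and Cdt1, which licenses replication origins, with 1.98 ± 0.34, adjusted p = 0.00145. Cenpt, a protein of the inner kinetochore, had 0.529, 0.504, 0.317, 0.876 and 0.782 CPM in WT, 3.3, 1.76, 1.87, 1.92 and 1.85 in HYP and 2.69, 11.8, 4.72, 6.05 and 4.25 in PCC, a log2 fold change of 3.29 ± 0.46, adjusted p = 0.000503 for PCC vs. WT. Genes of the list that were not called in PCC vs. WT were Rbl2 (-0.45), Psmd7 (-0.53), Spc24 (0.88), Zwilch (0.88) and Tfdp2 (-0.75).

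Sdhd on chromosome 8 is a susceptibility gene of human pheochromocytoma. The CPM of Sdhd was 125, 118, 128, 133 and 150.2 in the WT samples 1 to 5, 88.5, 77, 109, 99.7 and 88.1 in the HYP samples and 86.2, 83, 79, 65.7 and 103 in the PCC samples. All PCC and all HYP samples lay below all WT samples, and PCC and HYP overlapped. The log2 fold change was -0.68 ± 0.14, adjusted p = 0.00365 for PCC vs. WT and -0.56 ± 0.14, adjusted p = 0.0162 for HYP vs. WT. These calls rested on the scaling: with library totals the values were -0.38 and -0.35 and with the total of the listed counts -0.17 and -0.10, and none of these 4 passed. Over all alternatives the adjusted p for PCC vs. WT ranged from 1.28e-07 to 0.796. Egln1, the other susceptibility gene looked for, was not among the listed genes.

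Mitochondrial enzymes were listed on both chromosomes. The CPM of Cox4i1 was 525, 524, 477, 515 and 462 in the WT samples 1 to 5, 380.3, 218, 308, 361 and 310.1 in the HYP samples and 217, 269, 268, 186 and 287 in the PCC samples. Cox4i1 did not overlap between WT and either other group, with a log2 fold change of -1.06 ± 0.18, adjusted p = 0.00117 for PCC vs. WT and -0.72 ± 0.16, adjusted p = 0.0108 for HYP vs. WT. The call for PCC vs. WT was lost only with the total of the listed counts (-0.56), and that for HYP vs. WT also with library totals (-0.54). Uqcrc1, a core subunit of respiratory complex III, had a log2 fold change of -1.14 ± 0.19, adjusted p = 0.00104 in PCC vs. WT and passed in all alternatives, with an adjusted p of 2.54e-09 to 0.0171. Cox5a of complex IV (-0.90) and Got2, the mitochondrial aspartate aminotransferase (-0.93), were called lower but not with the total of the listed counts, and Ndufb7 of complex I (-0.59) not with library totals either. Alas1, Gcsh and Gpt2, enzymes outside the respiratory chain, had the largest falls of the list.

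The CPM of Alas1 was 1504, 1750, 1653, 1609 and 2082 in the WT samples 1 to 5, 719, 567, 412, 388 and 293 in the HYP samples and 224, 91.9, 126, 75 and 397 in the PCC samples. Alas1 encodes the first enzyme of heme synthesis, and its log2 fold change was -3.26 ± 0.44, adjusted p = 0.000426 for PCC vs. WT and -1.91 ± 0.23, adjusted p = 0.000557 for HYP vs. WT. Gcsh on chromosome 19 encodes the H protein of the glycine cleavage system. The CPM of Gcsh was 220.2, 226, 304, 304 and 293 in the WT samples 1 to 5, 112, 100.2, 184, 150.3 and 108 in the HYP samples and 64.6, 30.4, 53.6, 21.2 and 94.4 in the PCC samples. Its log2 fold change was -2.38 ± 0.35, adjusted p = 0.000617 for PCC vs. WT and -1.39 ± 0.37, adjusted p = 0.0421 for PCC vs. HYP. Gpt2, a mitochondrial alanine aminotransferase on chromosome 19, was 72.4 to 117 CPM in HYP and 9.37 to 51.8 CPM in PCC without overlap, a log2 fold change of -1.71 ± 0.43, adjusted p = 0.033, while the WT samples ranged widely, from 32.9 to 220.1 CPM. Against this direction, Idh3a, a subunit of isocitrate dehydrogenase of the TCA cycle, was higher in PCC, at 67.0 to 100.1 CPM against 44.8 to 60.2 CPM in WT (log2 fold change 0.61 ± 0.14, adjusted p = 0.00738), and so was Hmgcll1 (1.25 ± 0.31, adjusted p = 0.0104). Acat1 (-0.38) and Coa6 (-0.69) were not called.

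The 7 redox genes tested all fell in PCC vs. WT. Of the 28 genes of this list, 9 were listed. Ces1a, which the filter on low counts removed, went the other way in the fit without that filter (log2 fold change 4.515, adjusted p = 0.0134). Gpx1 on chromosome 8 encodes the glutathione peroxidase of the cytosol and mitochondria. The CPM of Gpx1 was 522, 521, 622, 616 and 619 in the WT samples 1 to 5, 289.6, 234, 350.1, 346 and 279.9 in the HYP samples and 137, 72.6, 128, 49 and 196 in the PCC samples. No groups overlapped, and the log2 fold change was -2.35 ± 0.33, adjusted p = 0.000476 for PCC vs. WT and -1.45 ± 0.34, adjusted p = 0.0261 for PCC vs. HYP. Gclc, which catalyses the limiting step of glutathione synthesis, was 331 to 379 CPM in WT, 193 to 336 in HYP and 39.6 to 142.8 in PCC (log2 fold change for PCC vs. WT -2.07 ± 0.33, adjusted p = 0.000956). Prdx2 on chromosome 19, a peroxiredoxin, was 938 to 1102 CPM in WT and 225 to 483 CPM in PCC (-1.62 ± 0.22, adjusted p = 0.000428). Nqo1 (-1.55 ± 0.40, adjusted p = 0.0112), Osgin1 (-2.17 ± 0.58, adjusted p = 0.0137) and Gsta4 (-2.19 ± 0.46, adjusted p = 0.00399) were also lower in PCC. Mt2A, a metallothionein, was lower with overlap between the groups (-0.96 ± 0.32, adjusted p = 0.041). The adjusted p ranged up to 0.408 for Mt2A and up to 0.0694 for Nqo1 over the alternatives. In PCC replicate 4, which had the lowest level of cortex markers (0.023), Gpx1, Gclc, Osgin1 and Gsta4 were lowest. In PCC replicate 5, with the highest level (0.363), they were highest. This order was not particular to redox genes. Among PCC samples, Sdhd, Cox4i1, Alas1, Gcsh, Birc2 and Snai3 were also lowest in replicate 4 and highest in replicate 5. The part of the cortex in all these values was not tested.

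**Figure D5:**
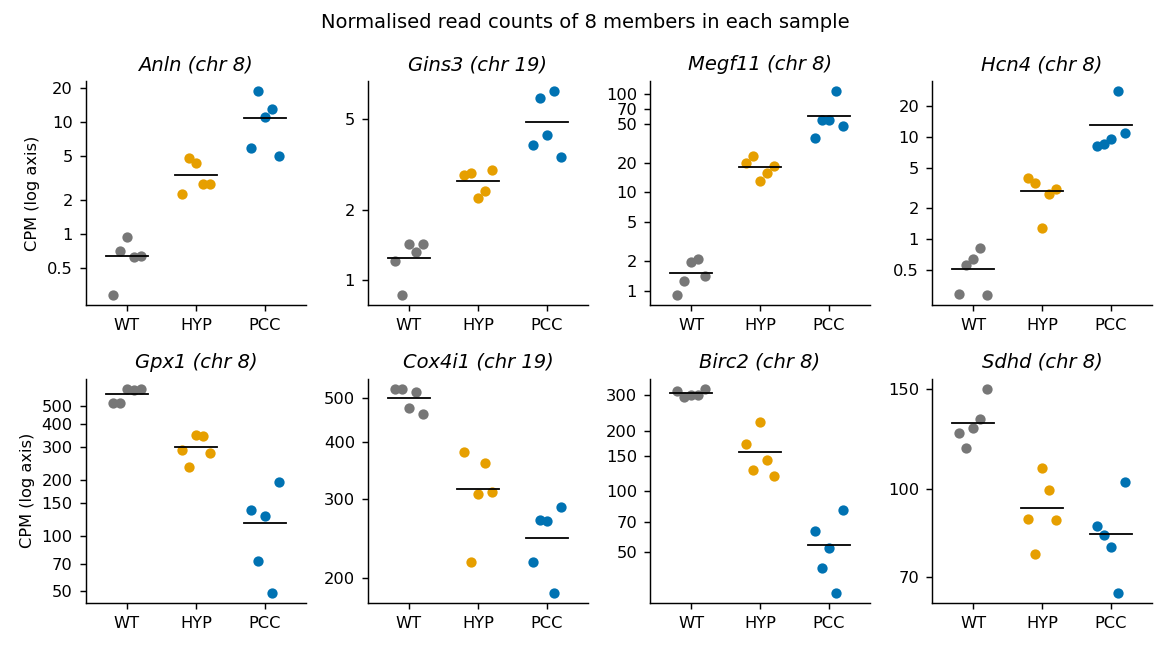
Normalised read counts (CPM, log axis) of 8 genes in each of the 15 samples; points are samples and black lines group means. Anln, Gins3, Megf11 and Hcn4 rise from WT over HYP to PCC without overlap, while Gpx1 and Birc2 fall without overlap, and Cox4i1 and Sdhd separate WT from both other groups.

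Genes of chromaffin cells and neurons formed the list with the most higher genes. Among them was Megf11, an EGF-repeat receptor of neurons. The CPM of Megf11 was 0.914, 1.26, 1.95, 2.13 and 1.42 in the WT samples 1 to 5, 20, 23.3, 13, 15.7 and 18.4 in the HYP samples and 35.4, 53.8, 54.5, 106 and 47.3 in the PCC samples. No groups overlapped, and the log2 fold change was 5.25 ± 0.37, adjusted p = 6.21e-05 for PCC vs. WT, 3.50 ± 0.27, adjusted p = 3.22e-05 for HYP vs. WT and 1.60 ± 0.27, adjusted p = 0.00757 for PCC vs. HYP. Hcn4, a pacemaker channel, was 0.285 to 0.814 CPM in WT, 1.29 to 3.99 in HYP and 8.20 to 27.9 in PCC, a log2 fold change of 4.61 ± 0.49, adjusted p = 0.00013 for PCC vs. WT and of 2.02 ± 0.40, adjusted p = 0.0145 for PCC vs. HYP. On chromosome 19, Cbln1, a secreted organizer of synapses, had 0.192, 0.0504, 0.264, 0.501 and 0.142 CPM in WT, 2.22, 5.05, 4.58, 3.25 and 4.54 in HYP and 1.09, 36.5, 2.99, 8.84 and 7.13 in PCC. PCC replicate 2 stood far above the others, and HYP and PCC overlapped. Jph3, a junctophilin of neurons, also rose (4.29 ± 0.43, adjusted p = 0.000109 for PCC vs. WT and 3.39 ± 0.33, adjusted p = 0.000191 for HYP vs. WT).

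The list also holds receptors, channels and granule proteins. Chrnb4, a subunit of the nicotinic receptor through which chromaffin cells are stimulated, was 33.6 to 77.5 CPM in WT, 124.8 to 178.8 in HYP and 78.0 to 171.7 in PCC (log2 fold change 1.14 ± 0.28, adjusted p = 0.00929 for PCC vs. WT and 1.47 ± 0.22, adjusted p = 0.0014 for HYP vs. WT). Its partner Chrna3 did not pass for PCC vs. WT (1.02 ± 0.36, adjusted p = 0.0502), although WT overlapped neither other group. Scg3, a secretogranin of secretory granules, was 17.4 to 83.3 CPM in WT and 155 to 461 CPM in PCC (2.13 ± 0.43, adjusted p = 0.00305). Cacna2d2, a calcium channel subunit, was higher in PCC than in both other groups. It was 8.18 to 27.2 CPM in WT, 17.4 to 21 in HYP and 36.2 to 208 in PCC, a log2 fold change of 2.69 ± 0.51, adjusted p = 0.00237 for PCC vs. WT and 2.53 ± 0.42, adjusted p = 0.00702 for PCC vs. HYP. The dopamine receptor Drd2 was higher in PCC vs. WT (1.54 ± 0.50, adjusted p = 0.0339), a call that 5 of the 10 fits without a single library lost. WT replicate 5 had the lowest value of Drd2, Scg3, Chrnb4 and Cacna2d2 among the WT samples, as it had the lowest level of chromaffin markers. Slc6a2 on chromosome 19, the norepinephrine transporter, was 25.5 to 251 CPM in WT, 585 to 988 in HYP and 129.7 to 676 in PCC; it was higher in HYP vs. WT (2.18 ± 0.48, adjusted p = 0.00989) and did not pass in PCC vs. HYP (-1.13 ± 0.42, adjusted p = 0.124). Genes of the list that were lower in PCC vs. WT were Rora (-1.78) and Scamp2 (-0.66).

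Genes of steroid synthesis were mostly lower in PCC. Fdx1, which passes electrons to steroid hydroxylases, was 2138 to 3555 CPM in WT, 539.7 to 1245 in HYP and 69 to 1198 in PCC (-2.45 ± 0.63, adjusted p = 0.0115 for PCC vs. WT). Hsd11b2 on chromosome 19, which inactivates glucocorticoids, was 53.2 to 129.8 CPM in WT, 35.8 to 83.9 in HYP and 2.13 to 26.2 in PCC (-2.56 ± 0.56, adjusted p = 0.00494). Cyp11a1, the side-chain cleavage enzyme that starts steroid synthesis, had 4278 to 19398 CPM in WT and 298 to 4701 CPM in PCC, with overlap, and did not pass (-1.85 ± 0.69, adjusted p = 0.0604). The mineralocorticoid receptor gene Nr3c2 was higher (0.95 ± 0.28, adjusted p = 0.0236). The level of the cortex markers, which include Fdx1 itself, was lower in the same samples, and its part in these values was not tested.

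Genes of tumor suppression were found in both directions. Tgfbr2, a receptor of TGF-beta, was 131.5 to 207 CPM in WT, 46.2 to 115.3 in HYP and 19.6 to 76.9 in PCC (-1.97 ± 0.39, adjusted p = 0.00301 for PCC vs. WT). Rassf1 (-0.78 ± 0.25, adjusted p = 0.0317), Hyal2 (-0.99 ± 0.19, adjusted p = 0.00276) and Smarca4, a chromatin remodeller (-0.82 ± 0.22, adjusted p = 0.0134), were also lower. None of these 3 calls held in every alternative, with the adjusted p ranging up to 1 for Rassf1, up to 0.152 for Hyal2 and up to 0.538 for Smarca4. Dlec1, by contrast, was far higher in PCC. The CPM of Dlec1 was 0.673, 0.705, 0.527, 1.13 and 0.925 in the WT samples 1 to 5, 0.697, 0.714, 0.0645, 0.871 and 0.649 in the HYP samples and 4.42, 34.5, 12.4, 40.2 and 7.3 in the PCC samples. The log2 fold change was 4.63 ± 0.65, adjusted p = 0.000507 for PCC vs. WT and 4.90 ± 0.71, adjusted p = 0.00367 for PCC vs. HYP. Cadm1, a cell adhesion molecule, was higher (2.52 ± 0.32, adjusted p = 0.000311). Cdh1 on chromosome 19, E-cadherin, had 0.673, 1.41, 0.475, 1.75 and 0.356 CPM in WT and 1.55, 23.2, 3.88, 2.88 and 3.14 in PCC, with overlap; it was higher (2.86 ± 0.81, adjusted p = 0.018), and without PCC replicate 2 the log2 fold change was 1.56 and still passed.

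Matrix genes differed by member. Mmp12, a metalloelastase, had 0.337, 0.655, 0.369, 0.876 and 0.213 CPM in WT, 0.317, 0.494, 0.258, 0.465 and 0.749 in HYP and 3.92, 16.4, 9.17, 14.8 and 2.28 in PCC. All PCC samples were above all others, with a log2 fold change of 4.20 ± 0.64, adjusted p = 0.000703 for PCC vs. WT and 4.20 ± 0.58, adjusted p = 0.00285 for PCC vs. HYP. Thy1, a surface glycoprotein of neurons and stroma (1.81 ± 0.37, adjusted p = 0.00347), and Plxnb1, a semaphorin receptor (2.26 ± 0.33, adjusted p = 0.000613), were higher, as were Mmp15 (2.21 ± 0.27, adjusted p = 0.000248) and Cdh13 (2.16 ± 0.29, adjusted p = 0.000401) on chromosome 19. Anxa2, an annexin, was 160.3 to 223 CPM in WT, 107 to 129.4 in HYP and 28.3 to 74.6 in PCC (-2.02 ± 0.26, adjusted p = 0.000343). Smad3, which carries TGF-beta signals to the nucleus (-2.33 ± 0.43, adjusted p = 0.00196), and Icam1 (-2.22 ± 0.60, adjusted p = 0.0156) were lower. Among the immune genes, Casp12 (-2.09 ± 0.46, adjusted p = 0.00514) and Cx3cl1 (-1.87 ± 0.59, adjusted p = 0.0297) were lower and Cmtm7 was higher (1.04 ± 0.15, adjusted p = 0.000497).

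By size, the named genes of chromosome 8 that rose most in PCC vs. WT were Fbxw12, Prtg, B3gat1, Wdr72, Megf11 and C2cd4b. Fbxw12, an F-box protein, had at most 3 reads in every WT library and 0.730 to 3.05 CPM in PCC, which is at least 12.1-fold higher. Prtg, protogenin of the immunoglobulin superfamily, was in the same way at least 18.5-fold higher, at 1.5 to 7.28 CPM in PCC. B3gat1, which makes the HNK-1 carbohydrate of neural cells, had 1.54, 1.76, 1.05, 0.689 and 0.356 CPM in WT, 61.7, 212, 73.2, 29.9 and 55.1 in HYP and 6.01, 189.7, 50.5, 12 and 82.2 in PCC. Its samples spread widely within HYP and PCC, and these 2 groups overlapped, while both lay above WT (5.91 ± 0.96, adjusted p = 0.00102 and 6.22 ± 0.60, adjusted p = 0.000187). Wdr72 (5.88 ± 0.65, adjusted p = 0.000151) and C2cd4b (4.89 ± 0.81, adjusted p = 0.00115) were also higher in PCC vs. HYP.

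Among the genes of chromosome 8 that fell most were Alas1, Klhl40, Eepd1, Vill and Elovl5. Elovl5, a fatty acid elongase, was 290 to 539 CPM in WT, 98.6 to 244 in HYP and 31.2 to 113 in PCC (-2.66 ± 0.35, adjusted p = 0.000399). Eepd1 (-2.97 ± 0.60, adjusted p = 0.00335) and Klhl40 (-3.12 ± 0.50, adjusted p = 0.000974) fell in PCC vs. WT but did not pass in HYP vs. WT (adjusted p = 0.0565 and 0.0737). In the window with the lowest median of chromosome 8, from 0 to 10 Mb, Birc2, an inhibitor of apoptosis, changed with little spread. The CPM of Birc2 was 317, 295, 301, 300.3 and 323 in the WT samples 1 to 5, 171, 127, 221, 142 and 119 in the HYP samples and 63.5, 41.3, 52.3, 31.2 and 80.5 in the PCC samples. No groups overlapped, and the log2 fold change was -2.55 ± 0.24, adjusted p = 9.87e-05 for PCC vs. WT, -1.03 ± 0.18, adjusted p = 0.00303 for HYP vs. WT and -1.62 ± 0.28, adjusted p = 0.00805 for PCC vs. HYP. Pdgfd, a platelet-derived growth factor of the same window, also fell (-2.65 ± 0.44, adjusted p = 0.00116). In the window with the highest median, from 130 to 140 Mb, Tmem158 rose (3.12 ± 0.59, adjusted p = 0.00219) and Slc6a20 fell with overlap (-3.35 ± 0.78, adjusted p = 0.00664).

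On chromosome 19 the genes that rose most were Cbln1, Jph3, Cenpt, MAST1, Mcm5 and Zfp423. MAST1, a kinase bound to microtubules, was 0.640 to 4.38 CPM in WT, 17.7 to 28.1 in HYP and 11.0 to 61.6 in PCC (3.13 ± 0.62, adjusted p = 0.00287), and Zfp423, a transcription factor of neural precursors, 6.69 to 12.9, 32.4 to 55.9 and 53.3 to 99.3 (2.75 ± 0.26, adjusted p = 9.87e-05). Those that fell most were Snai3, Bean1, Hsd11b2, Gcsh, Usp38 and Sult5a1. Snai3, a zinc finger factor of the Snail family, had 16.3, 12.3, 10.4, 7.58 and 4.91 CPM in WT, 3.68, 1.48, 1.61, 1.57 and 1.35 in HYP and 0.319, 0.485, 0.936, 0.284 and 1.72 in PCC, a log2 fold change of -3.82 ± 0.56, adjusted p = 0.000583. Bean1 was 17.6 to 51.5 CPM in WT, 15.3 to 43.9 in HYP and 1.18 to 10.4 in PCC, so that HYP overlapped WT while PCC lay below both (-2.58 ± 0.54, adjusted p = 0.00389 for PCC vs. WT and -2.26 ± 0.52, adjusted p = 0.0253 for PCC vs. HYP). Usp38, a deubiquitinase, fell with a wide range in WT of 35.4 to 209.5 CPM (-2.35 ± 0.44, adjusted p = 0.00229), and Sult5a1, a sulfotransferase, at low levels of at most 5.10 CPM (-2.29 ± 0.52, adjusted p = 0.00568). In its windows with the lowest and highest median, Ccdc79 (1.37) was higher at under 2 CPM, and Polr2m, with at most 3 reads in every WT library, was at least 3.46-fold higher.

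Some genes were highest in HYP, the group of younger rats. Dscaml1, a cell adhesion molecule of neurons, had at most 3 reads in every WT library, 1.71, 3.18, 1.35, 3.48 and 3.34 CPM in HYP and 0.41, 0.485, 0.281, 0.331 and 1.03 CPM in PCC. It was at least 15.3-fold higher in HYP than in WT, and lower in PCC vs. HYP (-2.44 ± 0.45, adjusted p = 0.01). Tppp3, a tubulin polymerization protein on chromosome 19, had 3.61, 6.85, 3.9, 4.32 and 2.92 CPM in WT, 37.8, 28.5, 19.3, 32.9 and 30.8 in HYP and 16.9, 16.2, 16.2, 15.3 and 18.2 in PCC. No groups overlapped, and it was higher in HYP vs. WT (2.73 ± 0.26, adjusted p = 0.000181) and lower in PCC vs. HYP (-0.95 ± 0.19, adjusted p = 0.0166). Cilp, of cartilage matrix, followed the same pattern (3.08 ± 0.42, adjusted p = 0.00103 for HYP vs. WT and -1.60 ± 0.43, adjusted p = 0.0428 for PCC vs. HYP), as did the serotonin receptor gene Htr1b (2.12 ± 0.36, adjusted p = 0.00295 and -1.44 ± 0.36, adjusted p = 0.0319). Among the genes that fell in HYP vs. WT were Kirrel3 (-1.46 ± 0.29, adjusted p = 0.00578) and, on chromosome 19, Dhx38, a splicing helicase (-1.53 ± 0.35, adjusted p = 0.0127), Spata2L (-1.50 ± 0.20, adjusted p = 0.000834) and Fbxl8 (-1.43 ± 0.32, adjusted p = 0.0111). Some genes were lower in PCC than in HYP while HYP overlapped WT or WT had no value. Col6a5, a collagen, was 1.06 to 2.45 CPM in WT, 1.4 to 2.67 in HYP and 0.0456 to 0.602 in PCC (-3.53 ± 0.60, adjusted p = 0.00729 for PCC vs. HYP), and Cpne4 (-2.92 ± 0.64, adjusted p = 0.0212), Iqch (-2.52 ± 0.42, adjusted p = 0.00679) and, on chromosome 19, Tox3 (-1.73 ± 0.47, adjusted p = 0.0451) were lower in the same comparison. The calls of Cilp, Gpt2 and Htr1b in PCC vs. HYP were lost with library totals and with the sum of listed counts. With the latter those of Gcsh, Tox3 and Tppp3 in PCC vs. HYP and of Dhx38 and Fbxl8 in HYP vs. WT were lost too.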

How the data were processed

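RNA-seq was performed by the authors on poly-A selected, paired-end libraries from the adrenal medulla of 15 animals, 5 per group. Per the paper's methods and the submitters' processing notes, reads were aligned with HISAT2 to Rn06 and counted with featureCounts 1.5.0-p3; whether strand was used in counting is not given in the sources used here, so reads of overlapping or antisense genes cannot be told apart. The deposited tables, 1 per comparison, hold raw read counts, counts divided by the authors' DESeq2 size factors (a normalised signal), FPKM values, gene positions, and the log2 fold changes and p-values of the authors' own comparisons. The tables list only called genes (7683 in PCC vs. WT, 4406 in HYP vs. WT, 3360 in PCC vs. HYP). The authors' log2 fold changes were not used, and their deposited p-values served only to recover how many genes they had tested. The FPKM and signal columns of the authors gave library totals and size factors.

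Counts were tested with the quasi-likelihood test of edgeR 4.0.16 (R 4.3.3) on all genes of a table after its filter on low counts, with TMM scaling and all 10 samples of the comparison. P-values were adjusted by Benjamini-Hochberg over the 18790, 18057 and 17454 genes the authors had tested, and a gene was called at an adjusted p under 0.05. Of the listed genes of both chromosomes, the filter removed 32 and 21 (chromosomes 8 and 19) in PCC vs. WT, 13 and 14 in HYP vs. WT, and 15 and 3 in PCC vs. HYP. The value after ± is the standard error of the log2 fold change. CPM were computed on 1 scale over all samples, from TMM factors over the 5492 genes with values in all 15. A fold against a group with at most 3 counts in every library is a lower bound, computed with 3 counts per library. DESeq2 1.42.0 was an alternative. The fit was tested on simulated data. All analyses of positions used Rn06 as in the tables; promoters carry GRCr8 positions.

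Named genes were the 6 (PCC vs. WT) or 4 (other comparisons) largest changes per chromosome and direction among called genes whose groups did not overlap, that had a symbol and a mean of 1 CPM or more, together with Sdhd, the top genes of the outermost windows and the members of the role lists. Members and lists were chosen with earlier results of these data known. Replicate numbers did not pair the samples: deviations of same-numbered samples correlated at -0.236 to 0.256, and in no comparison were all 5 over 0.1. The paper counts both PCCs and advanced PCCs among the PCC samples. The sample labels do not say which is which, so tumor stage was not used here. Results of 2 of these genes are not reported here.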

Additional observations from a re-analysis of the deposited data

Results flagged for a closer look

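Of 124 groups of 5 values examined for the named genes, 14 held a sample far from the other 4 (a gap above 0.71 of the group's range). Such a gap is met in about 1 in 20 groups of normally distributed values. The CPM were not transformed and the genes were named for large changes, so that rate need not hold here. The number flagged is therefore a description only. PCC replicate 2 was highest by such a gap for 3 genes of chromosome 19. Its CPM was 36.5 for Cbln1 (next 8.84), 61.55 for MAST1 (next 18.3) and 99.31 for Zfp423 (next 66.6). PCC replicate 4 was highest for Prtg at 7.284 (next 2.95) and Megf11 at 106.3 (next 54.5), both of chromosome 8. PCC replicate 5 was highest for Vill at 15.81 (next 4.73), Dscaml1 at 1.031 (next 0.485) and Col6a5 at 0.6015 (next 0.146). HYP replicate 2 had 212.3 CPM of B3gat1 (next 73.2), and HYP replicate 1 had 3.296 CPM of Cenpt (next 1.92) and 3.677 of Snai3 (next 1.61). HYP replicate 3 was lowest for Dlec1 at 0.06447 (next 0.649). In WT, replicate 4 had 0.1252 CPM of Fbxw12 and replicate 2 had 0.1007 of Dscaml1, each with the other 4 samples at 0, which is at most 3 reads. With the other 4 at 0, any read gives such a gap.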

How the results depend on the processing

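The share of genes fitted lower kept chromosome 19 first of 20 autosomes in PCC vs. WT and PCC vs. HYP in all 18 fits, but counts of called genes moved with the scaling. The fits share the genes the authors had called, so this rank had little room to change. Scaled to the sum of listed counts, the genes called lower on chromosomes 8 and 19 were 61 and 29 in PCC vs. WT, 15 and 8 in HYP vs. WT, and 27 and 3 in PCC vs. HYP, and the log2 fold change of Bckdhb in HYP vs. WT reversed to 0.006. With library totals they were 95 and 51, 28 and 20, and, on chromosome 19 in PCC vs. HYP, 6, with 14 higher. The authors' size factors gave 13 higher on chromosome 19 in PCC vs. HYP. DESeq2 gave 81 and 42 lower there, and 9 higher on chromosome 19. With at least 10 counts in every sample, 43 and 28 were lower in HYP vs. WT.

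The distance of the chromosome median from the other autosomes was, with the mean in its place (chosen after seeing the data), -0.045 and -0.334 in PCC vs. WT, 0.069 and 0.091 in HYP vs. WT, and for chromosome 19 in PCC vs. HYP -0.443. With at least 10 counts in every sample it was -0.362 for chromosome 19 in PCC vs. WT and 0.028 for chromosome 8 in HYP vs. WT. Over genes with values in all 15 samples these were -1.316 and 0.860. In HYP vs. WT, no filter gave 0.864 and 0.772, and leaving out adrenal cortex genes gave 0.818 for chromosome 8. The levels per sample, as differences between groups in the order PCC minus WT, HYP minus WT and PCC minus HYP, were -0.184, -0.043 and -0.141 for chromosome 8 and -0.314, -0.024 and -0.290 for chromosome 19 from summed counts. From the mean over genes (chosen after seeing the data) they were 0.043, 0.092 and -0.049, and -0.234, -0.039 and -0.195. With at least 10 counts in every sample they were 0.380, 0.091 and 0.288, and -0.533, -0.317 and -0.215. In windows of 5 Mb, most genes were lower in 0% of windows of chromosome 8 and 100% of chromosome 19 in PCC vs. HYP. The causes were not tested.

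With 1 library left out, the genes called in PCC vs. WT were 147 to 181 higher and 128 to 165 lower on chromosome 8, and 58 to 71 and 82 to 107 on chromosome 19. In HYP vs. WT they were 78 to 113 and 44 to 83, and 37 to 54 and 26 to 42. In PCC vs. HYP they were 15 to 45 and 8 to 60, and 1 to 10 and 3 to 29. The medians ranged over 0.004 to 0.112 and -1.138 to -0.979, 0.724 to 0.829 and -0.054 to 0.010, and -0.153 to -0.022 and -1.248 to -0.980. With the replicate block, though numbers did not pair the samples, 16 genes were higher and 12 lower on chromosome 8 and 0 higher and 1 lower on chromosome 19 in PCC vs. HYP. Genes with few reads, such as Fbxw12, Prtg, Dscaml1 and Polr2m, allow only lower bounds at this depth.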
